A study of Mus musculus with 4 samples.

Results

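The genes described here are those of glycolysis, of the pentose phosphate pathway and of the cellular response to low oxygen, read in mouse macrophages of 2 activation states with and without the inflammatory cytokine interleukin-1α (IL-1α). The set was a list of 39 gene symbols: 23 of glycolysis and of sugar and lactate transport, 4 of the pentose phosphate pathway and 12 of the hypoxia response. A gene counted as measured when the array annotation gave it a row of its own, and the rows of a gene were averaged. By that rule 35 of the 39 were measured, out of 19938 genes on the array. Of these, 34 matched by symbol, and the oxidoreductase Ero1l, which the annotation calls Ero1a, matched through its Entrez number. Gapdh was named in 25 rows, each shared with other genes, and had 0 rows of its own, as did Gpi1, Eno1 and G6pdx, so these 4 are not analysed here.

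Bone marrow cells of C57BL/6N mice were grown with 10 ng/mL M-CSF to day 9. Polarisation took 48 h, and used interferon-γ at 10 ng/mL for M1 macrophages and interleukin-4 at 20 ng/mL for M2 macrophages. Each phenotype was kept for 24 h with vehicle or with 10 ng/mL IL-1α. Each of the 4 combinations of phenotype and treatment has 1 array, and the series asked how the phenotypes differ in their response to the cytokine. No resting group is among them, so a difference between M2 and M1 cannot be assigned to interferon-γ or to interleukin-4.

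Glycolysis turns glucose into pyruvate and lactate, and the pentose phosphate pathway branches from it to make NADPH and ribose for biosynthesis. The transcription factor HIF-1 joins an unstable α subunit to a stable partner. In oxygen, prolyl hydroxylases mark the α subunit for destruction, and in its absence HIF-1 switches on glucose transporters, glycolytic enzymes and other genes through short DNA elements. Macrophages activated by interferon-γ and microbial products are known for high glycolysis and for HIF-1α that is stable even in oxygen, whereas those activated by interleukin-4 are known for greater use of oxidative metabolism.

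Values are RMA signals on the log2 scale, and differences are in log2 units. The median over all genes and arrays was 7.62 and served as a floor, a level below which a signal is not shown to be above background. Because a group holds 1 array, no value has a standard deviation. The arrays of 1 phenotype correlated at Pearson r = 0.996 to 0.997 across probe sets and those of different phenotypes at 0.962 to 0.966. The phenotype labels were borne out by their markers: of 7 interferon-γ markers, 6 were lower in M2 with vehicle by 2-fold or more, the exception being Ciita at -0.13 (named after its value was seen), and all 8 interleukin-4 markers were at least 2-fold higher. The nitric oxide synthase Nos2 read 13.00 and 13.02 on the M1 arrays (vehicle, then IL-1α) and 6.79 and 7.13 on the M2 arrays. All 12 macrophage core markers reached the floor on at least 1 array, with Fcgr1, Cd14 and Aif1 at least 2-fold lower in M2 with vehicle. Other marker lists moved with the phenotype too. The log2 of the summed signal of 13 cell cycle genes was 11.81 and 11.77 in M1 and 13.80 and 13.89 in M2, and that of 8 osteoclast markers was 12.50 and 12.43 in M1 and 14.78 and 14.87 in M2. Of those at the floor with vehicle, 11 of 12 cell cycle and 6 of 6 osteoclast genes were 2-fold higher in M2. Dendritic cell markers, 9 genes, summed to 11.98 and 11.86 in M1 and 13.55 and 13.53 in M2. With vehicle 6 of them reached the floor, 5 in M1 and 3 in M2, and 2 were 2-fold higher and 3 lower in M2. Neutrophil markers, 10 genes, summed to 11.65 and 11.66 in M1 and 11.91 and 11.90 in M2. With vehicle 6 of these reached the floor, 1 in M1 and 6 in M2, and 3 were 2-fold higher in M2. The part of these marker lists in the differences below was not tested, and fewer cells of a type cannot be told apart from less RNA per cell. None of 3 erythroid markers and 2 of 9 lymphocyte markers reached the floor.

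The HIF-binding element has the core ACGTG or GCGTG. RefSeq promoter windows of build GRCm38.p6, from 250 bases before to 50 after a transcription start, were available for 34 of the 35 genes (not Ndrg1). Read on both strands, 39 of their 48 windows (81.2%) held at least 1 core, against 14380 of 32851 windows of all genes (43.8%). Counted by gene among those that reached the floor, 30 of 32 members (93.8%) and 5794 of 8588 genes overall (67.5%) had a window with a core. The enolase gene Eno2 and the triosephosphate isomerase gene Tpi1 had none in these windows. The E-box CACGTG, which contains ACGTG on both strands and so adds 2 overlapping cores, was in 6 of the 32 (18.8%, against 12.1% of genes overall). The STAT6-type element, TTC and GAA set 4 bases apart, was in 5 (15.6%, against 6.57%). These are matches of letters, not shown to be bound. The list was chosen to hold hypoxia-response genes, and some members are known HIF-1 targets. Its share of windows with HIF cores is therefore not an independent result. The windows of the 6 genes that differed at least 2-fold between the vehicle arrays are printed because the results below turn on those genes, with the HIF cores of either strand in capitals, each 5′ to 3′ on the strand of its gene.
Pfkfb3, window 1, chr2:11502041-11502340, minus strand: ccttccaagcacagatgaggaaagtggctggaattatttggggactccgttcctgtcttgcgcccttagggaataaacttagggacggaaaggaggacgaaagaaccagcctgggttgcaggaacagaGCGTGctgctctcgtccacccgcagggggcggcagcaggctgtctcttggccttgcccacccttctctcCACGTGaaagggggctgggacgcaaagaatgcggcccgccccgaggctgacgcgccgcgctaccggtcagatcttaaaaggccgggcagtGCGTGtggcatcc
Pfkfb3, window 2, chr2:11553880-11554179, minus strand: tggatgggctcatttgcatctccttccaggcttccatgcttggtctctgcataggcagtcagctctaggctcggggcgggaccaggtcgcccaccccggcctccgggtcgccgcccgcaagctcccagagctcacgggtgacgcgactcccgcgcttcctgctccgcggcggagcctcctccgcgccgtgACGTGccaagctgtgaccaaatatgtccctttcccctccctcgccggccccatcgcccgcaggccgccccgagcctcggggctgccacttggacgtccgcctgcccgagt
Slc16a3, chr11:120948817-120949116, plus strand: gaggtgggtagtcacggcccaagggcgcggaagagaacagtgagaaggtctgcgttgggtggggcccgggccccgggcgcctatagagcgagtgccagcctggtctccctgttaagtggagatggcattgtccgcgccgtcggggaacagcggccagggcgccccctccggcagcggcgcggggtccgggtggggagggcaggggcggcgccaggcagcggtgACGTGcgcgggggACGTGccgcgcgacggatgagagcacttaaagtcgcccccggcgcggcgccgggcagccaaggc
Slc16a1, chr3:104638414-104638713, plus strand: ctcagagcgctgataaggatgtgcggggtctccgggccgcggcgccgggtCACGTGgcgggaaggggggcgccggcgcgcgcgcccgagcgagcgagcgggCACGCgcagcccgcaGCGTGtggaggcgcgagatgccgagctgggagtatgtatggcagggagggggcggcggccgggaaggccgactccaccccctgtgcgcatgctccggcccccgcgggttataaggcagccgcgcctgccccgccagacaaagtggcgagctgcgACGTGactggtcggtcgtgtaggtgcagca
Slc2a6, chr2:27027949-27028248, minus strand: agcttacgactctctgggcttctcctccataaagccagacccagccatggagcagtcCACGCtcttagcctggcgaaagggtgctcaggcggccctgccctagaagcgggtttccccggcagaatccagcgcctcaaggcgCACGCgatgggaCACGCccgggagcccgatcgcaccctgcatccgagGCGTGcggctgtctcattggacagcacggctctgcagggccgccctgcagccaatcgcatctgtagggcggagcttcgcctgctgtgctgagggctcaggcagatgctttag
Pfkl, chr10:78009758-78010057, minus strand: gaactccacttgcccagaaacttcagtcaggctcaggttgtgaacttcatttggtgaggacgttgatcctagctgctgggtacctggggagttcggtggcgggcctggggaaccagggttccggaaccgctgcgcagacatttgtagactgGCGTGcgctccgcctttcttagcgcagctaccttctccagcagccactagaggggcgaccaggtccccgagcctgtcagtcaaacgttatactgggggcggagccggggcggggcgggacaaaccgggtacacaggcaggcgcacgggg
Bnip3, chr7:138909457-138909756, minus strand: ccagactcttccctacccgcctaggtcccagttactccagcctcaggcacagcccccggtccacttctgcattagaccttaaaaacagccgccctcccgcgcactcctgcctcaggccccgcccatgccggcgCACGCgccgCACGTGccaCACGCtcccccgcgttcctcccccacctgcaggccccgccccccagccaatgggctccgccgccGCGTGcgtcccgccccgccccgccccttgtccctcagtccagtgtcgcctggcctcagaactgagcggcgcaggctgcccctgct
Pfkfb3 has 2 windows, with 4 cores and 1 core, and Slc16a1 and Bnip3 have 5 each. The E-box in Slc16a1, in Bnip3 and in window 1 of Pfkfb3 counts as 2 of these cores. Whether the number of cores goes with a difference in signal was not tested.

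The phenotypes were compared on the vehicle arrays and again on the IL-1α arrays. With vehicle, the members that stood lowest in M2 were the glycolytic activator Pfkfb3, the lactate exporter Slc16a3, the sugar transporter Slc2a6, the mitophagy receptor Bnip3 and the phosphofructokinase Pfkl, and 1 member, the lactate and pyruvate carrier Slc16a1, stood 2-fold higher. The other members lay under 2-fold. Of the 35, 32 reached the floor on at least 1 of the vehicle arrays, and 5 were at least 2-fold lower and 1 at least 2-fold higher. Over all 10489 genes compared in the same way, 6.83% were 2-fold lower and 7.03% 2-fold higher. With IL-1α on both sides, 5 of 33 were lower and 1 higher, beside 6.06% and 8.15% of all genes. At 1.5-fold, 12 were lower and 5 higher with vehicle, beside 13.3% and 14.1% of all genes, and 11 lower and 4 higher with IL-1α, beside 11.4% and 16.6%. These differences between single arrays have no replicate check.

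A limma model with phenotype and treatment as additive terms gave the only test. It sets a difference common to both treatments against the departure from additivity in 4 arrays, not against a spread between cultures. It called 19 of the 33 members it could test lower in M2 and 5 higher (Benjamini-Hochberg adjusted p under 0.05 over all genes), where 29.3% of all 10625 genes were called lower and 33.2% higher. Calls were thus common throughout the array. Signals of both M2 arrays lay below both M1 arrays for 22 of the 33 and above for 6, beside 38.3% and 43.1% of all genes.

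**Figure D1:**
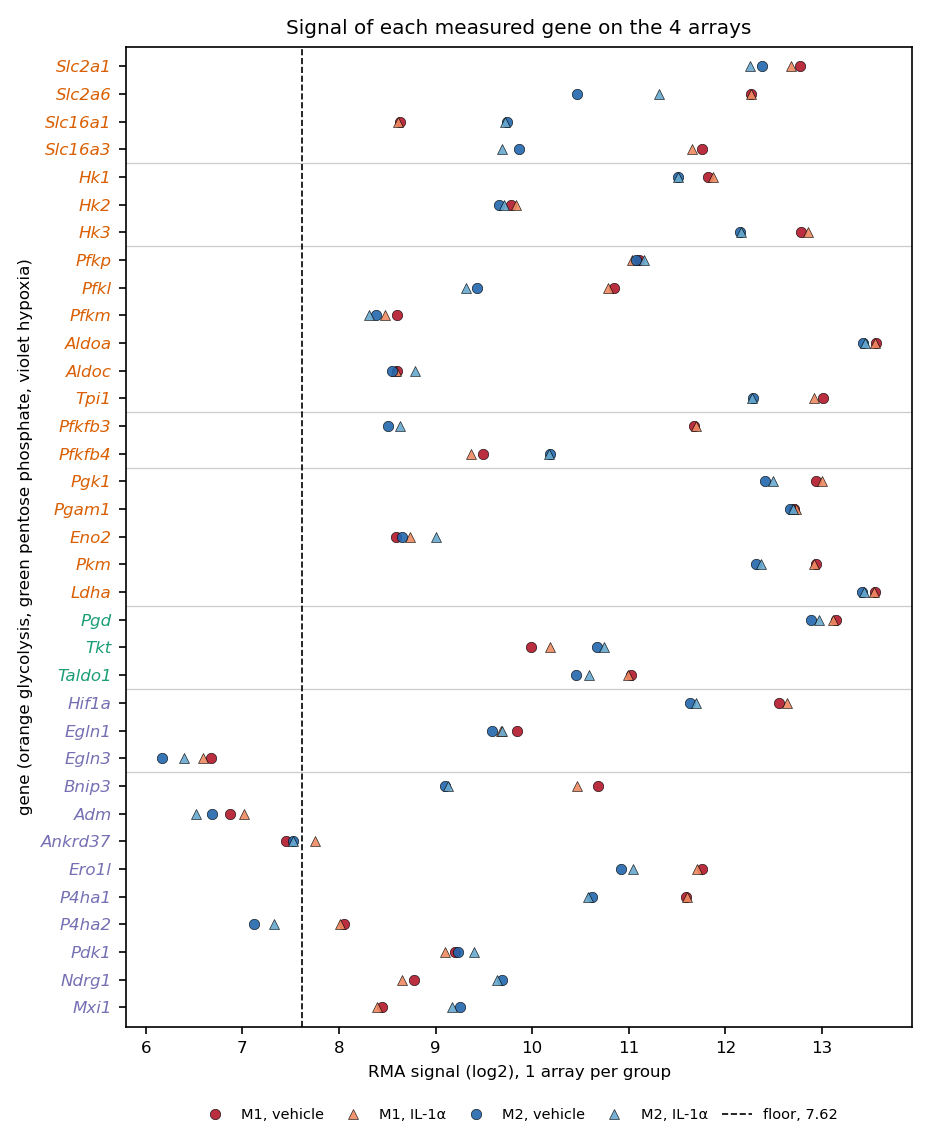
RMA signal (log2, horizontal axis) of the 35 measured genes on the 4 arrays, 1 point per array, with circles for vehicle and triangles for IL-1α, M1 in red and M2 in blue. The dashed line marks the floor of 7.62, under which Egln3 and Adm lie on all 4 arrays. Levels are to be read along a row, not between genes, since probe sets differ in brightness.

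The carriers of sugar and lactate differed in both directions. Slc2a1 encodes GLUT1, the main glucose importer of activated macrophages. It read 12.78 in M1 with vehicle, 12.68 in M1 with IL-1α, 12.38 in M2 with vehicle and 12.26 in M2 with IL-1α. Both M2 arrays were lower, by 0.39 with vehicle and 0.42 with IL-1α, under the 2-fold line. Slc2a6 encodes GLUT6, a member of the family found on lysosomes and inducible by inflammatory stimuli. It read 12.27 on both M1 arrays, 10.46 in M2 with vehicle and 11.32 in M2 with IL-1α. The arrays did not overlap by phenotype, and the gap was 3.49-fold with vehicle and 1.93-fold with IL-1α.

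Slc16a3 encodes MCT4, a lactate exporter of glycolytic cells and a HIF-1 target. It read 11.76 and 11.66 in M1 (vehicle, then IL-1α) and 9.87 and 9.69 in M2. Both M2 arrays were lower, by 3.72-fold with vehicle and 3.92-fold with IL-1α. Slc16a1 encodes MCT1, which carries lactate and pyruvate in either direction. It read 8.63 and 8.61 in M1 and 9.74 and 9.72 in M2, so that both M2 arrays were higher, by 2.15-fold and 2.16-fold. In limma the effect for Slc16a3 was -1.93 ± 0.07 SE (adjusted p = 2.59e-10) and for Slc16a1 1.11 ± 0.08 SE (adjusted p = 2.74e-07). For Slc2a6 limma gave -1.38 ± 0.14 SE (adjusted p = 4.26e-06). That call was lost under a robust variance prior (limma adjusted p = 0.19), and over the other alternatives its adjusted p ran from 2.10e-07 to 0.00056.

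Hexokinases trap glucose in the cell by phosphorylation. Hk2, the inducible isoform and a HIF-1 target, read 9.78 and 9.83 in M1 and 9.66 and 9.71 in M2, a difference of -0.12 under each treatment that limma did not call (adjusted p = 0.19). Hk3, the isoform of myeloid cells, read 12.78 and 12.86 in M1 and 12.15 and 12.16 in M2, and was lower in M2 by 0.64 and 0.70 (limma -0.67 ± 0.05 SE, adjusted p = 2.39e-07). The housekeeping isoform Hk1 averaged 11.82 and 11.87 in M1 and 11.51 and 11.51 in M2. Its 2 probe sets disagreed. The one linked to RefSeq transcripts was lower in M2 by 0.88 with vehicle, and the other, which rests on a single non-RefSeq accession, was higher by 0.26. There were 16 rows annotated to both Rpl17, a ribosomal protein gene, and Hk1, and their differences ran from 0.27 to 0.43. The direction for Hk1 therefore turns with the probe set: limma called it lower on the mean (-0.34 ± 0.06 SE, adjusted p = 0.00024) and higher on the brightest probe set (0.19 ± 0.05 SE, adjusted p = 0.0065).

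Phosphofructokinase commits sugar to glycolysis, and 1 of its 3 isoforms differed past 2-fold. Pfkl, the liver-type isoform, read 10.85 and 10.79 in M1 and 9.43 and 9.32 in M2. Both M2 arrays were lower, by 2.69-fold with vehicle and 2.77-fold with IL-1α (limma -1.45 ± 0.07 SE, adjusted p = 7.30e-09). Pfkp, the platelet-type isoform, read 11.11 and 11.03 in M1 and 11.08 and 11.16 in M2, with overlapping arrays. Pfkm, the muscle-type isoform, read 8.60 and 8.47 in M1 and 8.38 and 8.31 in M2. limma called neither of these (adjusted p = 0.54 for Pfkp and 0.09 for Pfkm).

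The other enzymes of the upper part of the pathway split a hexose into trioses and interconvert them. The aldolase Aldoa read 13.56 and 13.55 in M1 and 13.42 and 13.45 in M2. Its difference of -0.14 with vehicle was small, and limma called it (adjusted p = 0.02), though not without the trend in the prior (limma adjusted p = 0.19). The brain-type aldolase Aldoc read 8.60 and 8.59 in M1 and 8.55 and 8.79 in M2, with overlapping arrays. Tpi1 read 13.01 and 12.92 in M1 and 12.29 and 12.27 in M2, lower by 0.72 and 0.65 (limma -0.68 ± 0.05 SE, adjusted p = 1.68e-07). The brightest signal of the M1 vehicle array was 14.40, so Aldoa was read near the top of the scale, where a difference can be compressed.

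Enzymes of the PFKFB family set the level of the sugar bisphosphate that activates phosphofructokinase. Pfkfb3, the isoform with the strongest kinase activity and a HIF-1 target, had the widest difference of any member. It read 11.68 and 11.70 in M1 and 8.51 and 8.63 in M2. Every array was above the floor, and the M2 arrays were lower by 8.98-fold with vehicle and 8.41-fold with IL-1α. With vehicle, Pfkfb3 ranked 105 from the lowest of 10489 genes. Pfkfb4, also a HIF-1 target, went the other way: it read 9.49 and 9.36 in M1 and 10.18 and 10.17 in M2, higher by 1.62-fold and 1.75-fold. limma gave -3.12 ± 0.07 SE for Pfkfb3 (adjusted p = 1.14e-11) and 0.75 ± 0.08 SE for Pfkfb4 (adjusted p = 4.51e-06).

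The lower part of the pathway harvests ATP and ends in lactate, and none of its 5 measured members differed 2-fold. The phosphoglycerate kinase Pgk1 read 12.94 and 13.00 in M1 and 12.41 and 12.49 in M2, lower by 0.52 and 0.51. The pyruvate kinase Pkm read 12.94 and 12.92 in M1 and 12.32 and 12.37 in M2, lower by 0.63 and 0.55. Both passed in limma (adjusted p = 1.39e-06 and 6.12e-07). The mutase Pgam1 lay between 12.67 and 12.73 on the 4 arrays, and limma did not call it (adjusted p = 0.55), although it did after loess centring (adjusted p = 0.0093).

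Lactate dehydrogenase A, which regenerates NAD by turning pyruvate into lactate, is a classic HIF-1 target. Ldha read 13.55 and 13.54 in M1 and 13.42 and 13.44 in M2, a difference of -0.13 with vehicle close to the top of the scale. limma called it (adjusted p = 0.03), but not without the trend (limma adjusted p = 0.21). The neuronal enolase Eno2 read 8.59 and 8.74 in M1 and 8.66 and 9.00 in M2. Its arrays overlapped, and limma did not call a phenotype effect (adjusted p = 0.15). Pgk1, Pgam1 and Pkm were read by 3, 3 and 2 probe sets, whose differences within a gene lay within 0.05 of each other with vehicle. Of the 3, 2 held identical values for Pgk1 and likewise for Pgam1, so they are not separate measurements, and copies of these genes elsewhere in the genome can share their probes.

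The pentose phosphate pathway was represented by 3 genes, all above the floor throughout. Pgd, the oxidative decarboxylase that makes NADPH, read 13.14 and 13.12 in M1 and 12.89 and 12.97 in M2, lower by 0.26 and 0.15. Taldo1, the transaldolase of the non-oxidative branch, read 11.03 and 10.99 in M1 and 10.45 and 10.59 in M2, lower by 0.58 and 0.40. Tkt, the transketolase that works beside it in that branch, read 9.99 and 10.18 in M1 and 10.67 and 10.75 in M2, higher by 0.69 and 0.56. Both M2 arrays lay on the same side of both M1 arrays for each gene, so the partners of the non-oxidative branch were displaced in opposite directions. limma called all 3 (adjusted p = 0.0025 for Pgd, 6.95e-05 for Taldo1 and 1.07e-05 for Tkt). Over all genes at the floor, 81.4% did not overlap by phenotype, and limma called 29.3% lower and 33.2% higher.

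The hypoxia genes begin with the HIF subunit and its hydroxylases. Hif1a read 12.56 and 12.63 in M1 and 11.64 and 11.69 in M2, lower by 0.92 and 0.94 (limma -0.93 ± 0.05 SE, adjusted p = 1.75e-08). After loess centring these differences reached the 2-fold line, at -1.02 and -1.06. Egln1, the main oxygen-sensing hydroxylase, read 9.84 and 9.68 in M1 and 9.59 and 9.69 in M2, with overlapping arrays. Egln3, an inducible hydroxylase, lay at 6.17 to 6.68, under the floor on all arrays.

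Among the 9 hypoxia-inducible genes the directions were mixed. Bnip3, which marks mitochondria for removal, read 10.68 and 10.46 in M1 and 9.10 and 9.13 in M2. Both M2 arrays were lower, by 2.99-fold with vehicle and 2.52-fold with IL-1α (limma -1.46 ± 0.08 SE, adjusted p = 2.54e-08), and both of its probe sets gave that direction. P4ha1, a subunit of the collagen prolyl hydroxylase, read 11.59 and 11.60 in M1 and 10.62 and 10.57 in M2. Its difference straddled the 2-fold line, at -0.98 with vehicle and -1.03 with IL-1α. Its paralogue P4ha2 read 8.06 and 8.01 in M1 and 7.12 and 7.33 in M2, under the floor on the M2 arrays, so it passed only through M1 and the size of its difference is uncertain. Ero1l, which drives disulphide formation in the endoplasmic reticulum, read 11.75 and 11.70 in M1 and 10.92 and 11.04 in M2, lower by 0.83 and 0.66.

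Higher in M2 were Ndrg1, a stress-response gene, and Mxi1, an antagonist of MYC. Ndrg1 read 8.77 and 8.65 in M1 and 9.69 and 9.64 in M2, higher by 0.92 and 0.99. Mxi1 read 8.44 and 8.39 in M1 and 9.25 and 9.17 in M2, higher by 0.81 and 0.77. limma called both (adjusted p = 1.09e-06 and 8.52e-06). Pdk1, a kinase that inhibits pyruvate dehydrogenase, read 9.20 and 9.10 in M1 and 9.23 and 9.40 in M2. limma did not call it (adjusted p = 0.14). The ankyrin-repeat gene Ankrd37 read 7.45 and 7.76 in M1 and 7.52 on both M2 arrays, reaching the floor on the M1 IL-1α array alone. The vasodilator peptide gene Adm lay at 6.52 to 7.02, under the floor on all arrays.

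**Figure D2:**
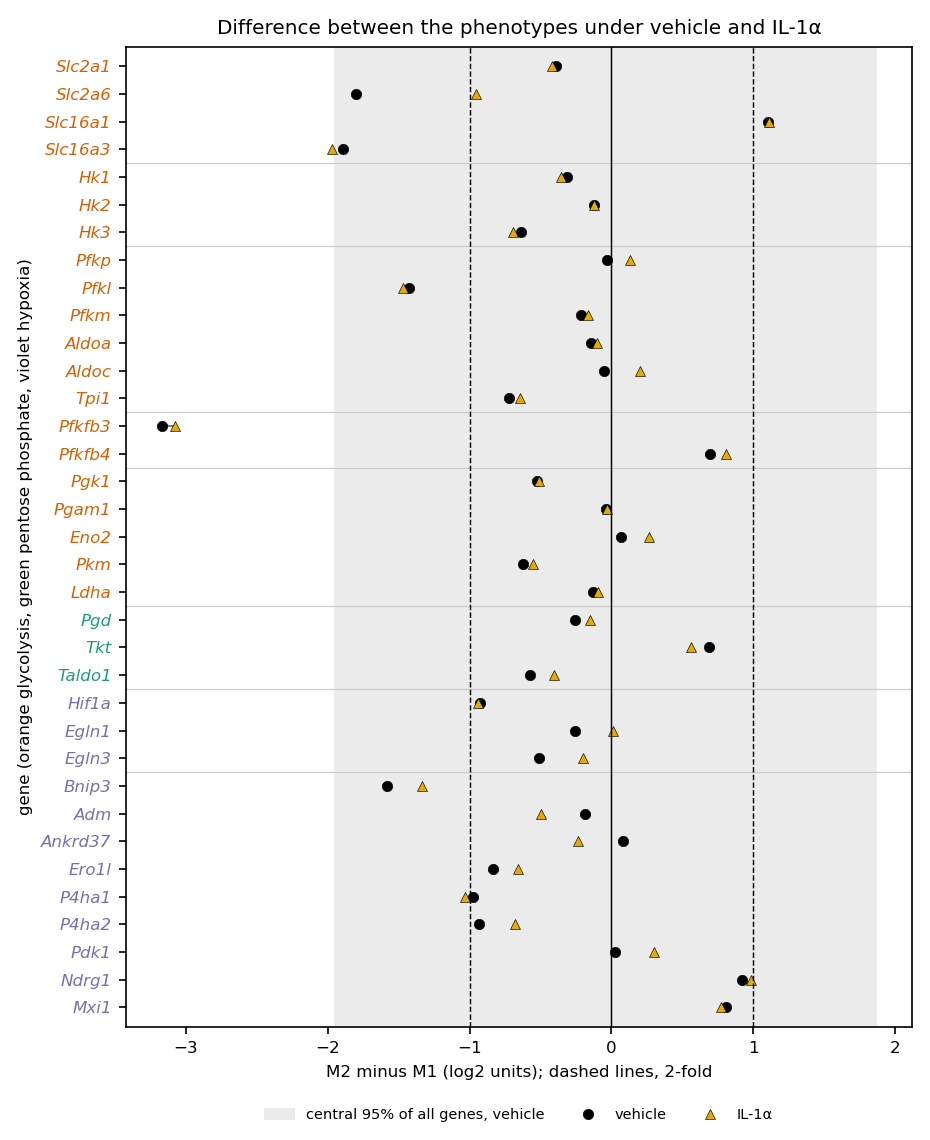
Difference M2 minus M1 in log2 units (horizontal axis) for the 35 measured genes, with black circles for the vehicle arrays and yellow triangles for the IL-1α arrays. Dashed lines mark 2-fold and the grey band holds the central 95% of all genes with vehicle, from -1.95 to 1.87; Pfkfb3 at -3.17 lies outside the band with vehicle, and Slc2a6 is the gene whose symbols stand farthest apart, at -1.80 and -0.95.

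Set side by side, the 3 classes overlapped. The 20 glycolytic genes had a median difference of -0.27 with vehicle, with 4 at least 2-fold lower and 1 higher. The 3 pentose phosphate genes had a median of -0.26 and none past 2-fold. The 9 hypoxia genes that reached the floor had a median of -0.83 with 1 past 2-fold, which was lower, and all 12 measured had a median of -0.38. The median of all genes was 0.01. Between the IL-1α arrays the medians were -0.26, -0.15 and -0.45 over 20, 3 and 10 genes at the floor, beside 0.03 for all genes. Within glycolysis, with vehicle, the 4 carriers spanned -1.89 to 1.10 and the PFKFB pair -3.17 to 0.69. The 3 hexokinases spanned -0.64 to -0.12, the 6 genes of the upper part -1.43 to -0.03 and the 5 of the lower part -0.63 to 0.06. Gapdh, Gpi1 and Eno1 were not measured, and signals near the top of the scale can compress a difference. Whether the differences go with the step was not tested.

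Some members have a close relative that differed in another way, and 5 such pairs were picked for description after their values were seen. Other related members lay on the same side, such as P4ha1 and P4ha2 (-0.98 and -0.93 with vehicle), Slc2a1 and Slc2a6 (-0.39 and -1.80), and Hk2 and Hk3 (-0.12 and -0.64), the Hk2 difference not being called by limma. Pfkfb3 and Slc16a3 were lower in M2 where Pfkfb4 and Slc16a1 were higher. Pfkl was lower where the arrays of Pfkp overlapped. Hif1a was lower, while Epas1, which encodes the alternative subunit HIF-2α, read 7.16 and 7.11 in M1 and 9.59 and 9.71 in M2 (limma 2.52 ± 0.10 SE, adjusted p = 6.99e-10). Its M1 signals lay under the floor, so the size is uncertain. Of the lactate dehydrogenase pair, Ldha lay near the top of the scale, while Ldhb, the form that favours turning lactate back to pyruvate, read 8.11 and 8.23 in M2 and at most 7.17 in M1, also under the floor there.

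**Figure D3:**
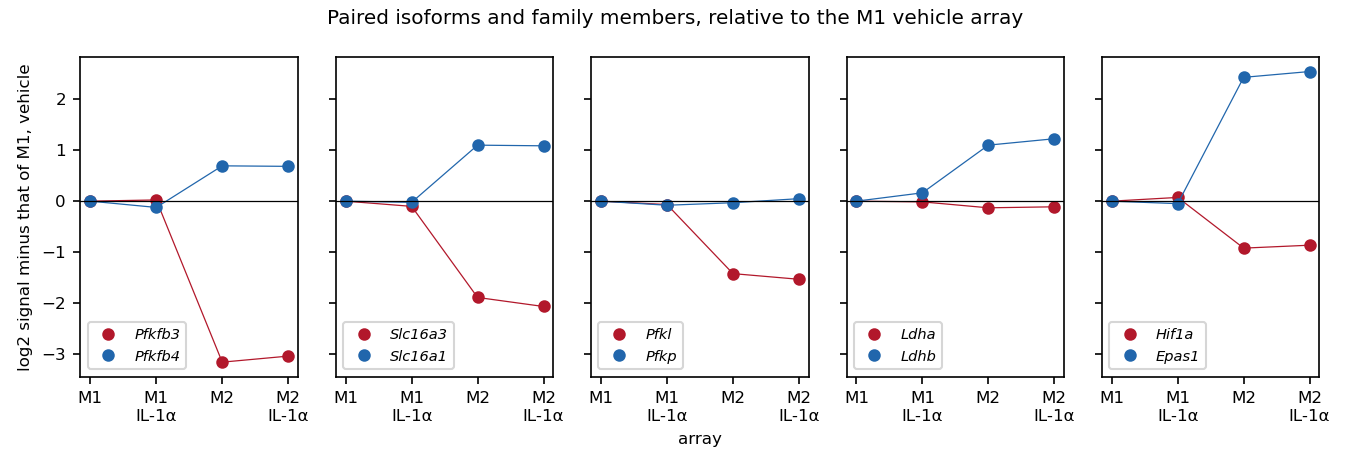
Signal on each array minus that of the M1 vehicle array, in log2 units (vertical axis), for 5 pairs of related genes picked after their values were seen, 1 point per array; lines join the points of a gene and carry no error. On the M2 arrays the gene in red lies below 0 in every panel, while the gene in blue lies above 0 for Pfkfb4, Slc16a1, Ldhb and Epas1 and within 0.05 of 0 for Pfkp.

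Further genes of the same pathways were read from related lists. Over all genes, 6.83% were 2-fold lower in M2 and 7.03% higher with vehicle, and 6.06% and 8.15% between the IL-1α arrays. Of 15 other glycolysis isoforms measured, 6 reached the floor with vehicle, and 2 were at least 2-fold higher in M2, Ldhb (1.10) and the galactose mutarotase Galm (1.63). Among 10 other pentose phosphate genes at the floor, 1 was 2-fold higher, Prps1 (2.15), which feeds ribose into nucleotide synthesis. limma called 6 of the 10 higher and 3 lower, beside 33.2% and 29.3% of all genes. Of 10 gluconeogenesis and glycogen genes, 2 were 2-fold lower in M2 with vehicle, the glycogen synthase Gys1 (-1.26) and the branching enzyme Gbe1 (-1.24). Between the IL-1α arrays neither reached 2-fold (-0.99 and -0.86). Of 12 genes listed around the entry of pyruvate into mitochondria, 1 was 2-fold lower with vehicle, Me1 (-1.47). It encodes the NADPH-producing malic enzyme of the cytosol. Between the IL-1α arrays Me1 was at -1.20, and 1 gene was 2-fold higher in M2, Pdk2 (1.23, against 0.92 with vehicle), a kinase that acts like Pdk1.

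Among 22 other hypoxia-inducible genes that reached the floor on at least 1 vehicle array, 4 were past 2-fold in each direction. Their median was -0.30, and 6.83% of all genes were 2-fold lower and 7.03% higher. The lowest were Nos2 (-6.21), under the floor in M2, and the endosomal GTPase Rab20 (-1.87), and the highest were the transferrin receptor Tfrc (3.52) and the transcriptional repressor Bhlhe40 (3.14). Between the IL-1α arrays 3 were past 2-fold in each direction, beside 6.06% of all genes lower and 8.15% higher. The angiogenic factor Vegfa, named after its values were seen, was at -1.40. limma called 13 of the 22 hypoxia-inducible genes lower and 6 higher, beside 29.3% and 33.2% of all genes. Among 11 regulators of glucose metabolism at the floor with vehicle, Myc was higher in M2 by 3.91, from under the floor in M1, and the deacetylase Sirt6 was lower by 1.01. These lists, like the main one, pointed in both directions. None of their genes at the floor differed 2-fold with IL-1α in either phenotype.

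The response to IL-1α was then read within each phenotype. In M1, none of the 33 members at the floor differed 2-fold, and none of 10012 genes did (0% in each direction). Their differences ran from -0.22 for Bnip3 to 0.31 for Ankrd37, whose vehicle signal lay under the floor. The central 95% of all genes lay between -0.24 and 0.21, so Ankrd37 was the 1 member outside that range. Tkt, at 0.20, was close to its edge. The medians were -0.02 for glycolysis, -0.02 for the pentose phosphate genes and -0.05 for hypoxia, beside -0.00 for all genes. All 6 upper glycolysis members lay slightly below 0 (-0.13 to -0.02) and the 3 hexokinases slightly above (0.05 to 0.07), sizes well within the spread of all genes, and Aldoa turned above 0 after loess centring.

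In M2, none of the 31 members at the floor differed 2-fold with IL-1α, where 0.35% of 10284 genes were 2-fold higher and 0% lower. The 1 member past 1.5-fold was Slc2a6, whose signal went from 10.46 with vehicle to 11.32 with IL-1α (0.86, or 1.81-fold), beside 0.875% of all genes higher by at least 1.5-fold. It ranked 42 from the highest of all genes. Eno2 (0.34, rank 328) and Aldoc (0.23, rank 907) came after it. Both encode tissue-restricted isoforms of abundant glycolytic enzymes, and neither left the central 95% of all genes, from -0.23 to 0.38. Pfkfb3 (0.12), Hif1a (0.06), Bnip3 (0.03), Slc2a1 (-0.13) and Slc16a3 (-0.18) stayed close to their vehicle signals. The medians were 0.02 for glycolysis, 0.09 for the pentose phosphate genes and 0.04 for hypoxia, beside 0.05 for all genes.

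**Figure D4:**
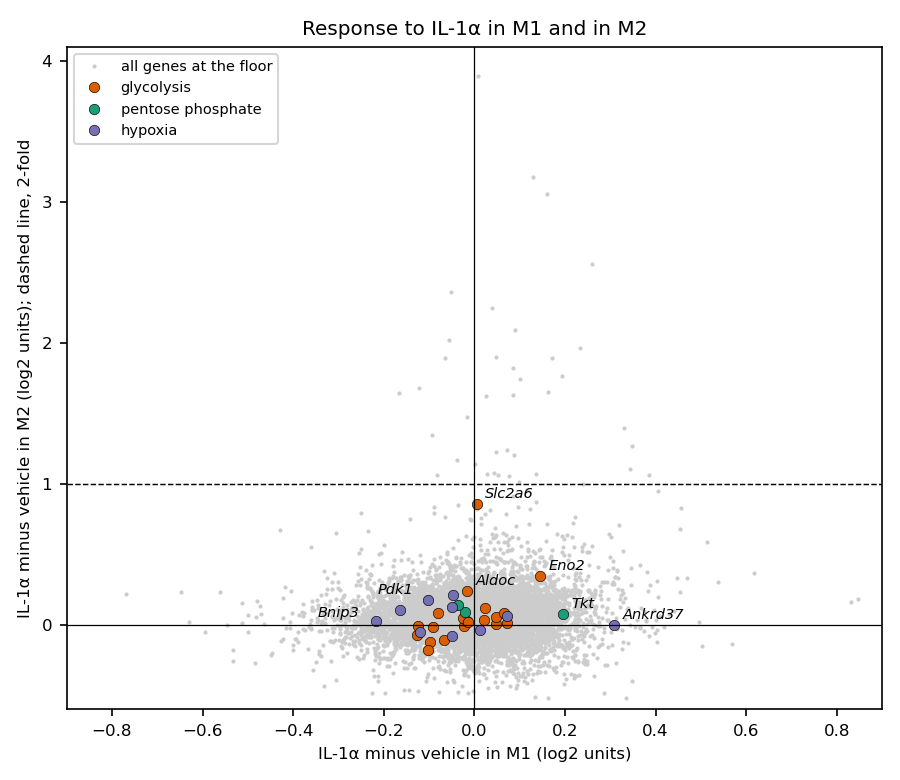
IL-1α minus vehicle in M1 (horizontal axis) and in M2 (vertical axis), both in log2 units, for the 33 members at the floor (coloured by class) and all 10625 genes at the floor (grey). The dashed line marks 2-fold in M2; members lie among the other genes, except that Slc2a6 stands apart at 0.86 in M2 and 0.01 in M1.

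Subtracting the response in M1 from that in M2 gives the contrast the series asked about, of which 4 arrays leave no test. None of the 33 members reached 2-fold in it, beside 0.32% of all genes higher and 0% lower. Slc2a6 had the largest, 0.85, and ranked 48 from the highest of 10625 genes, where 1.02% were at least 1.5-fold higher. Next came Pdk1 at 0.28, Egln1 at 0.26, P4ha2 at 0.25 and Aldoc at 0.25, with Ankrd37 lowest at -0.31. The gap between the phenotypes in Slc2a6 thus narrowed from -1.80 with vehicle to -0.95 with IL-1α, and the gap in Pfkfb3 was -3.17 and -3.07. In limma, 0 of the 33 members passed for the treatment term (smallest adjusted p = 0.58, for Slc2a6), and 3 had an unadjusted p under 0.05, namely Slc2a6, Eno2 and Slc2a1. limma called 0 of all 10625 genes for that effect, and 6.08% of them had an unadjusted p under 0.05. The term holds an effect common to both phenotypes, and a response in M2 alone also enters the residual. For Slc2a6 the term was 0.43, against differences of 0.86 in M2 and 0.01 in M1. It therefore cannot decide on a response of 1 phenotype, such as that of the 0.35% of genes 2-fold higher in M2.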

How the data were processed

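Single-colour Affymetrix arrays measured gene expression in 4 samples, grouped by their source names. Per the submitters' processing notes, the authors used Affymetrix Expression Console and RMA, and what they deposited is 1 log2 signal for each probe set and array. Versions, settings and the log base are not given in the sources used here; the values, up to 14.47, fit the log2 scale. RMA sets arrays to a common distribution, which removes any global difference in RNA. GEO's platform annotation names a single gene for 21789 of the 35556 rows, and 1621 with several genes and 12146 with none were left out.

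From these values, the rows of a gene were averaged (5 members had more than 1), and a gene entered a comparison when at least 1 of its arrays reached the floor of 7.617. Differences of at least 1 (2-fold) were counted without a test. limma 3.58.1 (R 4.3.3, lmFit and eBayes with trend) tested additive phenotype and treatment terms over 10625 genes, with 1 residual degree of freedom and 10.05 from the prior. Whether separate cultures or animals lie behind the arrays is not in the labels. The limma p-values set an effect against departure from additivity, pooled over genes through the prior, not against a spread between cultures. The phenotype term of the limma step was tested on simulated data. Members, related lists, naming rule (all members; up to 4 genes past 2-fold per related list) and tests were chosen with earlier results of these data known. Alternatives tried were 1.5-fold calls, loess centring, quantile normalisation, leaving out the floor or raising it to the 75th percentile, the brightest probe set, and eBayes without trend or robust. A restriction to probe sets with a RefSeq mRNA accession, and class medians under other floors, were added after seeing the data. The number of arrays limits the precision.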

Additional observations from a re-analysis of the deposited data

How the results depend on the processing

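At 1.5-fold in place of 2-fold, 12 members were lower and 5 higher in M2 than in M1 with vehicle, and 11 lower and 4 higher with IL-1α. At that threshold 1 member, Slc2a6, differed with IL-1α in M2 and in the response difference, and 0 differed in M1. The other alternatives gave 66 counts, all within 1.5 times of those reported. Loess centring gave 7 members lower under each treatment, and limma's calls ranged from 17 to 21 lower and from 4 to 6 higher. Of 36 class medians recomputed, 3 moved by more than the spread over genes of the M1 pair (0.111): hypoxia with vehicle was -0.38 without a floor, glycolysis -0.39 with the higher floor of 9.63, and pentose phosphate -0.38 after loess centring. The cause was not tested. Single arrays per group, an unreplicated additive model, signals under the floor and signals near the top of the scale limit every size given. No paired analysis was possible because each group holds 1 array and the labels give no replicate numbers.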

Other observations

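Some genes used to normalise expression assays differed between these phenotypes. Pgk1, itself in common use for that purpose, was lower in M2 by 0.52 with vehicle. Of 12 other reference genes measured, 2 were at least 2-fold higher in M2 with vehicle, beside 7.03% of all genes. These were the lysosomal enzyme Gusb (1.17) and the transferrin receptor Tfrc (3.52). Actb, encoding the cytoskeletal protein actin, was at -0.03 near the top of the scale, and the purine salvage gene Hprt was at -0.30 (limma -0.25 ± 0.06 SE, adjusted p = 0.0043). In limma, 8 of the 12 passed as higher in M2 and 2 as lower, beside 33.2% and 29.3% of all genes. With IL-1α, none of the 12 differed 2-fold in either phenotype, beside 0% of all genes in M1 and 0.35% in M2.

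The branches that leave glycolysis for serine and for hexosamines were read in 8 genes at the floor. With vehicle none was past 2-fold (median 0.39), beside 6.83% of all genes lower and 7.03% higher. Between the IL-1α arrays 2 were at least 2-fold higher in M2, beside 8.15% of all genes. These were the mitochondrial serine hydroxymethyltransferase Shmt2 (1.43) and the hexosamine acetyltransferase Gnpnat1 (1.06). In limma, 4 of the 8 passed as higher and 2 as lower, beside 33.2% and 29.3% of all genes.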
